A study of Homo sapiens with 6 samples.

Results

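Collagens are the main fibrous proteins of the extracellular matrix. Each collagen molecule is a helix of alpha chains, and every alpha chain has its own gene, named COL, the number of the collagen type, A and the number of the chain. The fibrillar types I, II, III, V and XI form the fibrils of bone, skin, tendon and cartilage, type IV forms the network of basement membranes, and other classes coat fibrils, bead along them or span the cell membrane. Platelets, the products of megakaryocytes, bind exposed collagen through glycoprotein VI and integrin alpha2 beta1, and basement membrane collagen lines the marrow vessels that megakaryocytes reach. The 44 protein-coding genes with such names were taken from the RefSeq gene table of GRCh38.p14, out of 20037 protein-coding genes on the chromosomes. A site of the authors' table was given to a collagen when it overlapped the gene body or lay within 10 kb of it. That gave 589 of 181135 sites, at 42 of the 44 genes. No site of the table fell at COL3A1 or COL11A1.

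Accessibility was measured by ATAC-seq, in which a transposase inserts adapters into open chromatin and reads are counted over each site. The cells were K562, an established human line from a chronic myelogenous leukaemia that the labels give as wild type and that has erythroid and megakaryocytic potential. PMA, a phorbol ester and a strong activator of protein kinase C, was given at 25 nM to drive them toward megakaryocytes. The 3 groups were cells at 0, 6 and 72 h of PMA, with 2 libraries each. All were kept in RPMI with serum and antibiotics, and the medium was renewed on the way to 72 h. The labels do not say whether the libraries of a group came from separate cultures, so p-values measure the spread between these libraries, which may be technical. In this bulk assay, more cells open at a site and a more open site in each cell cannot be told apart.

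Reads in the 181135 sites summed to 12258890 in the shallowest library, at 6 h, and to 35548737 in the deepest, at 72 h, and the other 6 h library held 33634403. Collagen sites took 0.163% and 0.161% of these counts at 0 h, 0.178% and 0.181% at 6 h, then 0.226% and 0.225% at 72 h, so that the groups did not overlap. Levels are given as CPM, the count of a site scaled to its library with TMM factors, and markers as CPM summed over sites at the gene ends. Those of K562 and erythroid cells had a site at 8 of 8 genes and ran from 396 to 427 at 0 h, 244 to 271 at 6 h and 149 to 162 at 72 h. The sum of the megakaryocyte markers ran from 56.6 to 60.2 at 0 h, from 37.3 to 39.1 at 6 h and from 37.1 to 41.1 at 72 h, with a site at 4 of 6 genes and none at PF4 or FLI1. Fibroblast and stromal markers, the cells that make most collagen in tissues, had a site at 4 of 8 genes, none at PRRX1, LUM, DCN or FAP, and ran from 10.5 to 11.2 at 0 h, 14.9 to 18.3 at 6 h and 24.4 to 28.2 at 72 h. Endothelial markers had a site at 2 of 6 genes, none at CDH5, KDR, TEK or ERG, and ran from 7.25 to 10.4 over all libraries. The part of these marker sums in the collagen results was not tested.

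Promoters are shown first, since among the 14 sites at a collagen start the largest rise at 72 h was at COL6A3 and the largest fall at COL15A1. Each line gives the 250 bases before a transcription start, 5′ to 3′ on the strand of the gene, from RefSeq promoters of GRCh38.p14. Capitals mark CG dinucleotides (CpG), the letters at which cytosine is methylated in human DNA. COL6A3 (chr2:237414165-237414414, minus strand) and COL7A1 (chr3:48595330-48595579, minus strand) had a site that rose at 6 h, as did COL5A3 (chr19:10010505-10010754, minus strand), and COL15A1 (chr9:98943657-98943906, plus strand) had a site that fell at 72 h. COL4A1 (chr13:110307158-110307407, minus strand), which lies head to head with COL4A2, had no site at its start.
COL6A3: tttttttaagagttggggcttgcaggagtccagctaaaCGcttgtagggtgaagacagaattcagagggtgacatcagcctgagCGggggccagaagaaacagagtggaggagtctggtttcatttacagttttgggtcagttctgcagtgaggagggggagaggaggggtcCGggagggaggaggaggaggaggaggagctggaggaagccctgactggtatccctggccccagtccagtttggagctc
COL7A1: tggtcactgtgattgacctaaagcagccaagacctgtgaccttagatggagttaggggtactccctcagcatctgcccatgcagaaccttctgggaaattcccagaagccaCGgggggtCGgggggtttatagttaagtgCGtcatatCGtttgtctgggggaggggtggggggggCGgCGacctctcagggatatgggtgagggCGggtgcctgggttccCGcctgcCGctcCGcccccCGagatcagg
COL5A3: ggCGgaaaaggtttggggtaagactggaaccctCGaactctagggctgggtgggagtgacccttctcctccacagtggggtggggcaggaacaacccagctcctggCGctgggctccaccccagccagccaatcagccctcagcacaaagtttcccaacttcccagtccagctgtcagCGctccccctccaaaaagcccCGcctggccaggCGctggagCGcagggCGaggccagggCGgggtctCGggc
COL15A1: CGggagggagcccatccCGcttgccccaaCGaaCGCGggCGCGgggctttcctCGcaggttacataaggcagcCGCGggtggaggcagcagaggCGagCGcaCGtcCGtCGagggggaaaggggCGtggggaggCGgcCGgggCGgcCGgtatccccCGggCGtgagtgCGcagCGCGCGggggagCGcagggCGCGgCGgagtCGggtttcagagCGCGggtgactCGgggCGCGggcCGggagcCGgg
COL4A1: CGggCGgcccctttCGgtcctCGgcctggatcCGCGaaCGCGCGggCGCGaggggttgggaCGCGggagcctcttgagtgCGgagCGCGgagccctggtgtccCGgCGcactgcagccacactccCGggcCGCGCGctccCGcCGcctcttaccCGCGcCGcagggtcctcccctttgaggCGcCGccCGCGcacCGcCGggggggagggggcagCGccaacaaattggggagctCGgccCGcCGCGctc
The COL6A3 promoter held 3 CpG in 250 bases and a GC content of 56.0%, COL5A3 held 10 CpG (66.0% GC) and COL7A1 held 11 CpG (60.8% GC). The promoters of COL15A1 and COL4A1 each held 38 CpG, with a GC content of 76.8% and 77.6%. RefSeq gave 44 starts for 32 of the 44 collagens. The 250 bases before each start were searched on both strands for motifs of factors of these cells. The AP-1 motif TGANTCA was in 1 of 44, an alternative start of COL10A1 (2.27%, against 5.36% of all 22199 promoters). The GATA motifs, which share their last letters, were in 2 for TGATAA (4.55% against 4.96%) and in 4 for AGATAA (9.09% against 7.09%). The RUNX motif TGTGGT was in 1 (2.27% against 9.36%), and CACCC, bound by KLF factors, in 31 (70.5% against 58.4%). A match is a description of the letters and shows no binding.

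At 72 h of PMA, 250 of 583 tested collagen sites were higher than at 0 h and 139 were lower, at an adjusted p under 0.05 in edgeR's quasi-likelihood test over all sites. That is 42.9% higher and 23.8% lower. Of all 177759 tested sites, 38.2% rose, 29.2% fell and 67.4% did either, so the share of collagen sites called, 66.7%, was near the background. Collagen sites had a median log2 fold change of 0.64, beside 0.29 over all sites. COL22A1 alone held 55 sites, of which 41 were higher, while 209 of the 528 sites of the other collagens were higher (39.6%) and 137 lower (25.9%), with a median of 0.46. At 6 h, 139 collagen sites were higher (23.8%) and 69 lower (11.8%), beside 23.4% and 16.8% of all sites (40.1% in either direction), with medians of 0.22 and 0.05. At 72 h against 6 h, 161 sites were higher (27.6%) and 94 lower (16.1%), beside 22.1% and 20.9% of all sites (42.9% in either direction), with medians of 0.12 and 0.03. The comparisons with 0 h share the 0 h libraries. Without COL22A1, 125 of 528 (23.7%) were higher and 94 (17.8%) lower at 72 h than at 6 h. Some change over the time course, by the F test of both time terms, was called at 408 sites (70.0%), and 72.0% of all sites were called.

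The split between gains and losses moved with the scaling of the libraries. Of the called collagen sites at 72 h against 0 h, 64.3% were higher with TMM factors, which are used throughout, 58.5% with RLE size factors, 77.6% with total counts, 54.9% with loess offsets and 87.7% with TMM factors from sites that had a peak in every library. The same splits were 66.8%, 56.4%, 77.5%, 51.2% and 82.4% at 6 h against 0 h, and 63.1%, 60.7%, 80.7%, 52.7% and 91.8% at 72 h against 6 h. The median of all sites at 72 h against 0 h was 0.29 with TMM, 0.11 with RLE, 0.79 with total counts, 0.01 with loess and 1.26 with TMM from shared sites. Sites called in the same direction under all 5 scalings are therefore counted beside the TMM calls. They were 209 higher and 49 lower at 72 h against 0 h (35.8% and 8.40%, where all sites had 29.2% and 9.39%), 110 and 38 at 6 h (18.9% and 6.52%, against 18.6% and 8.49%), and 113 and 21 at 72 h against 6 h (19.4% and 3.60%, against 15.6% and 3.43%). Without COL22A1 the 72 h shares under all 5 scalings were 32.6% higher and 9.28% lower. Leaving out the second 6 h library lowered the sites higher at 6 h to 91. At 72 h against 6 h, the sites lower numbered 61 without the second 6 h library and 52 without the first 72 h library, and without the second 72 h library there were 90 higher and 47 lower.

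**Figure D1:**
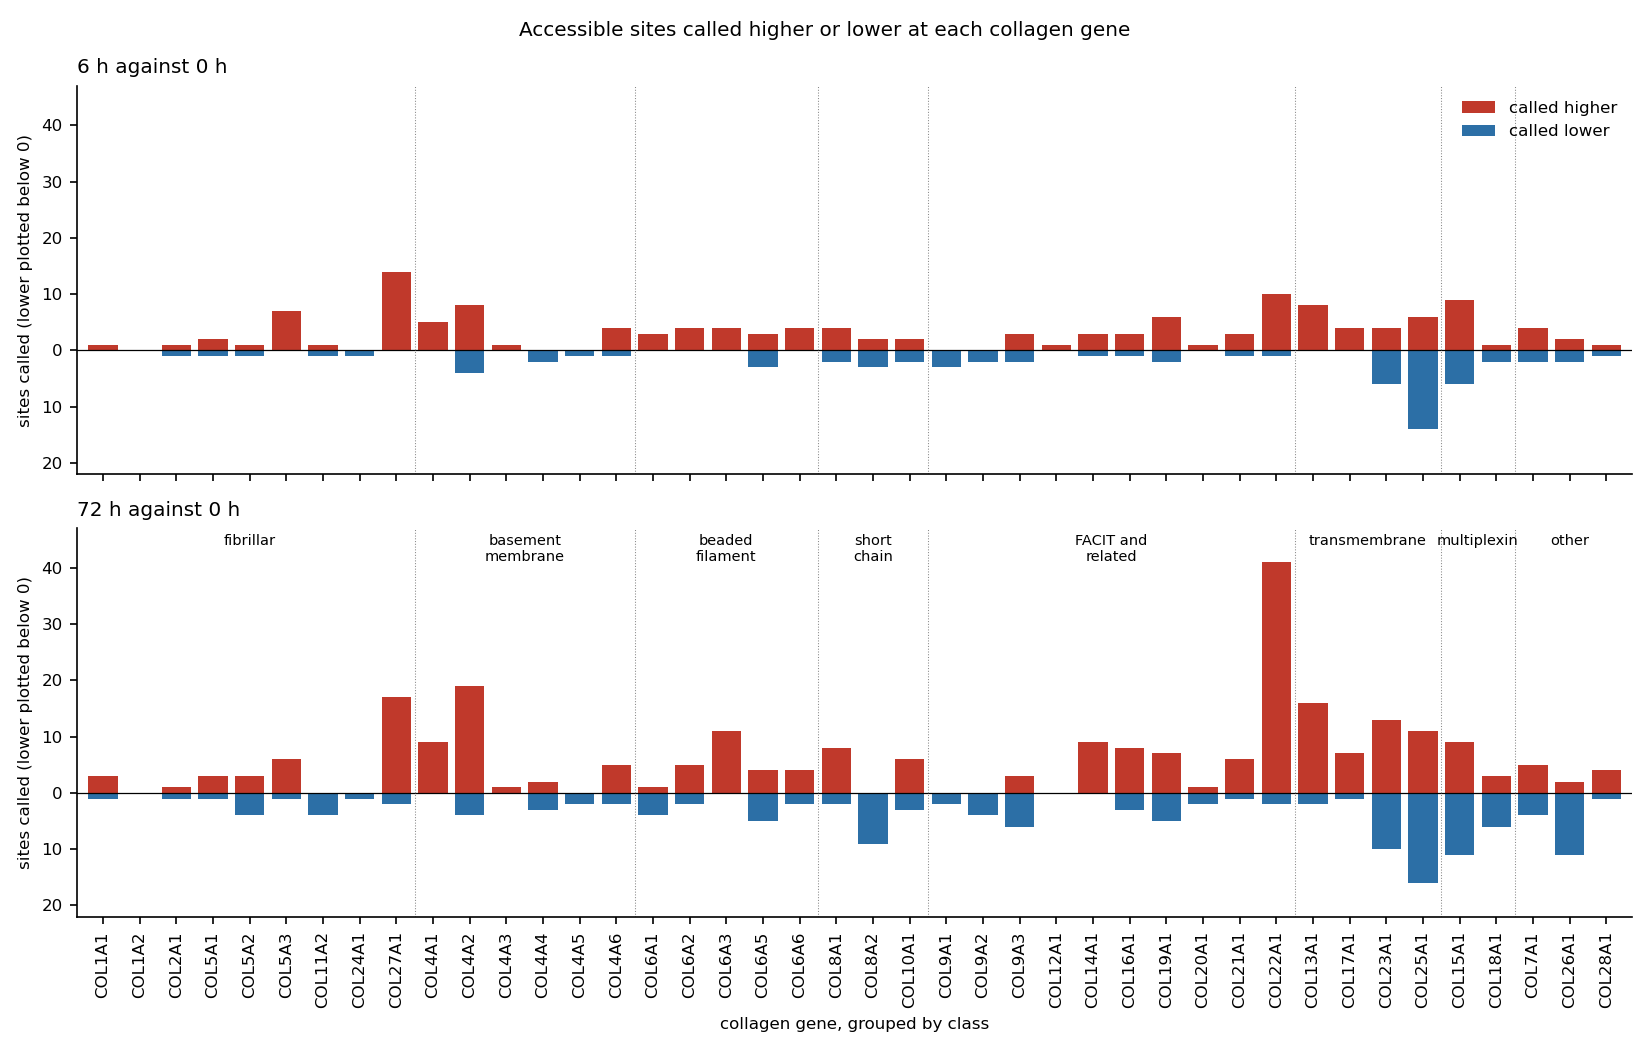
Number of sites called higher (red, above 0) and lower (blue, below 0) at each of the 42 collagen genes with a site, grouped by class, at 6 h (top) and 72 h (bottom) against 0 h. COL22A1 has the tallest bar at 72 h, 41 sites higher and 2 lower, while COL25A1 has 11 higher and 16 lower.

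With TMM, gains and losses were spread over most of the family, and they mixed within genes. At 72 h, 34 of 42 collagens had at least 1 site higher and 36 at least 1 lower, with both in 30. COL4A1, COL4A3, COL6A3 and COL14A1 had higher sites and none lower. COL8A2, COL9A1, COL9A2, COL11A2, COL4A5 and COL24A1 had lower sites and none higher, and COL1A2 and COL12A1 had neither. At 6 h, 36 collagens had a higher site and 28 a lower one. The mixing at 72 h was less under all 5 scalings, where 209 of the 250 higher calls held but 49 of the 139 lower ones. COL13A1, COL16A1, COL17A1, COL22A1 and COL6A2, for example, then kept higher sites and no lower one, and COL24A1 kept neither. The same counts over all protein-coding genes were not made. Collagens with a site had a median of 11 sites, and 38.2% of all sites were higher and 29.2% lower at 72 h. These counts of genes are therefore not read as a trait of collagens. The 4 genes with the most higher sites, COL22A1, COL4A2, COL27A1 and COL13A1, held 93 of the 250 at 72 h. Those with the most lower sites, COL25A1, COL15A1, COL26A1 and COL23A1, held 48 of the 139.

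By class, the collagens that attach to fibrils (the FACIT group and its relatives, 10 genes) had 75 of 134 sites higher at 72 h (56.0%) and 25 lower, where all sites had 38.2% higher and 29.2% lower. COL22A1 held 41 of the 75, and without it the class had 34 of 79 higher (43.0%) and 23 lower (29.1%), near the share of all sites, with a median of 0.37. Basement membrane type IV chains had 33 of 70 higher (47.1%) and 10 lower, and the beaded filament chains of type VI had 25 of 53 higher (47.2%) and 13 lower. The fibrillar chains had 33 of 83 higher (39.8%) and 15 lower, and the transmembrane collagens 47 of 112 higher (42.0%) and 29 lower. With TMM, losses were as many as gains or more in the short chain network collagens (14 higher and 14 lower of 38), the multiplexins COL15A1 and COL18A1 (12 and 17 of 47) and the group of COL7A1, COL26A1 and COL28A1 (11 and 16 of 46). Under all 5 scalings the higher and lower sites numbered 7 and 0 at COL8A1, 0 and 2 at COL8A2, and 4 and 2 at COL10A1. They numbered 7 and 6 at COL15A1 and 3 and 2 at COL18A1. At COL7A1 they were 3 and 2, at COL26A1 2 and 3, and at COL28A1 3 and 0. Gains thus outnumbered losses in each of these classes under all 5 scalings. The medians at 72 h ran from -0.20 in the short chain class to 1.41 in the FACIT class, beside 0.29 over all sites. No difference between classes was tested.

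Counts summed over the sites of a gene give 1 value per collagen, and these sums were tested over 18647 protein-coding genes. At 72 h, 15 collagen sums were higher and 20 lower, where 17.1% of all gene sums were higher and 69.0% lower (86.1% in either direction). All 5 scalings called 13 higher and 2 lower, beside 14.4% and 24.1% of all sums. At 6 h 12 sums were higher and 9 lower, where 14.8% and 44.6% of all were (59.4% in either direction), and all 5 scalings called 12 higher and 4 lower, beside 11.1% and 11.9%. At 72 h against 6 h, 10 were higher and 15 lower (12.8% and 65.5% of all, 78.3% in either direction), and all 5 scalings called 10 and 1 (10.8% and 14.7%). Sums named below as higher or lower were called so under all 5 scalings unless the sentence says otherwise. Sums given as not called were not called with TMM, and other scalings called more sums higher at 72 h, 29 with loess offsets and 34 with TMM from shared sites.

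**Figure D2:**
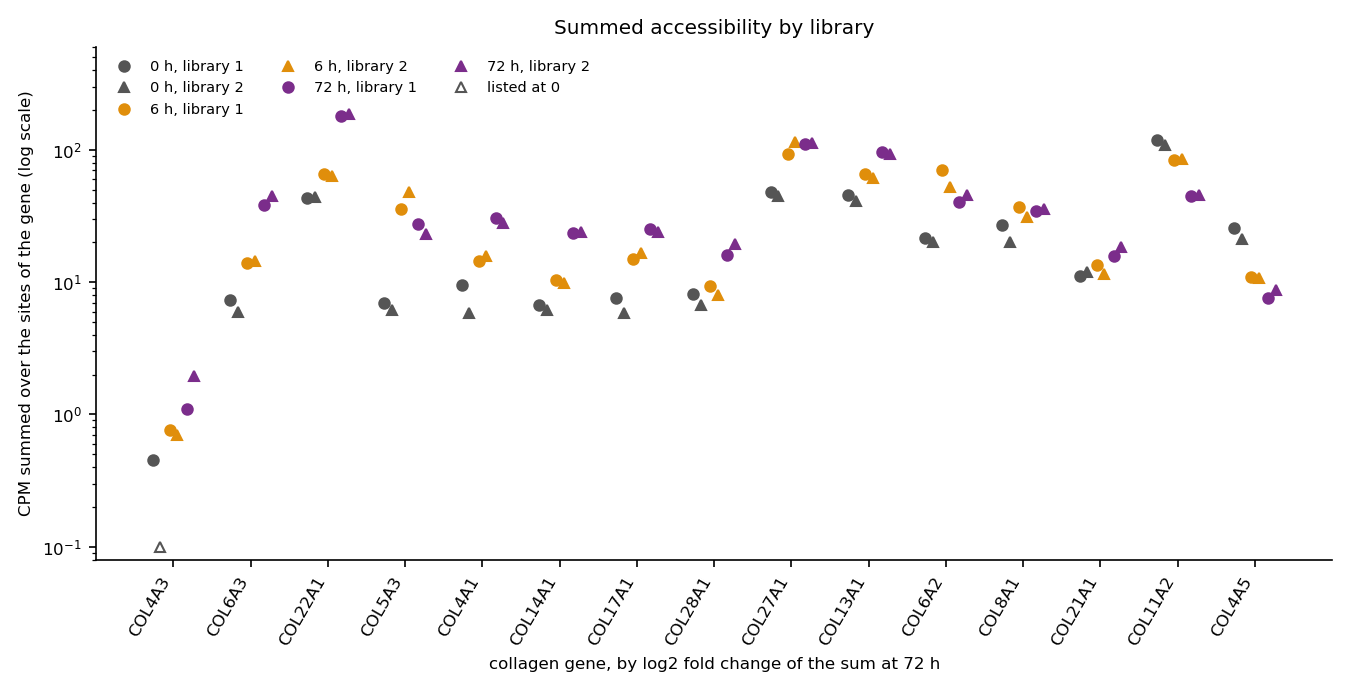
CPM summed over the sites of each collagen (log axis) in the 6 libraries, for the 15 genes whose sum was called in the same direction under all 5 scalings at 72 h against 0 h; circles are first and triangles second libraries. COL6A3 goes from 7.28 and 5.98 at 0 h to 38.2 and 44.9 at 72 h, and COL11A2 and COL4A5 on the right are the pair that fell.

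COL22A1 encodes the chain of a collagen of tissue junctions such as muscle and tendon, and it had the most gains of the family. Its summed accessibility was 43.5 and 44.2 CPM at 0 h, 66.3 and 63.4 at 6 h, then 179 and 187 at 72 h. The 3 groups did not overlap, and both 72 h libraries stood highest. The sum rose by 0.56 ± 0.10 (log2 fold change ± standard error) at 6 h, with an adjusted p of 0.00028 in edgeR, and by 2.06 ± 0.10 at 72 h, with an adjusted p of 1.3e-10. It also rose from 6 to 72 h, by 1.5 ± 0.10. Of the 55 sites, 10 were higher at 6 h (6 under all 5 scalings), 41 were higher at 72 h (37 under all 5), and 36 were higher at 72 h than at 6 h. Of these 55 sites, 26 had a deposited peak in both 72 h libraries and in no other. Peaks and counts come from the same libraries, so this is no separate support for the gains. Of all 126 collagen sites with that peak pattern, 103 were higher at 72 h and 1 lower. The higher sites ran the length of the gene, from 9.5 kb before its lower end to 335 kb, past its 325.8 kb body (chr8:138588235-138914041).

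Several COL22A1 sites were near empty before treatment. The site called peak168083 in the authors' table (chr8:138638609-138639292, in the gene body) had 3 and 0 counts at 0 h, 6 and 9 at 6 h, then 237 and 247 at 72 h. Against the 3 counts of both 0 h libraries this is a ratio of 72.3 at 72 h, with an exact 95% interval of 24.6 to 352 that covers counting error only. In peak168090 (chr8:138679948-138680960) accessibility was 0.26 and 0.0478 CPM at 0 h, 1.96 and 1.49 at 6 h, then 7.53 and 7.98 at 72 h. The log2 fold change of this site was 3.54 ± 0.56 at 6 h and 5.76 ± 0.46 at 72 h, so this site was already more open at 6 h. The most accessible site of the gene, peak168110 (chr8:138792395-138794086), went from 0.91 and 0.956 CPM to 6.65 and 9.94 and then to 23.9 and 27.5, a rise of 4.77 ± 0.28 at 72 h. Sites peak168089 (chr8:138677879-138678474) and peak168103 (chr8:138745995-138746730) were not called at 6 h, and rose by 4.61 ± 0.50 and 4.37 ± 0.50 from 6 to 72 h, from at most 0.512 CPM in the 6 h libraries to at least 3.35 at 72 h. The site nearest the end of the gene with the higher coordinate, peak168125, 294 bases outside it, lay between 0.171 and 0.585 CPM in all 6 libraries and was not called in any comparison.

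**Figure D3:**
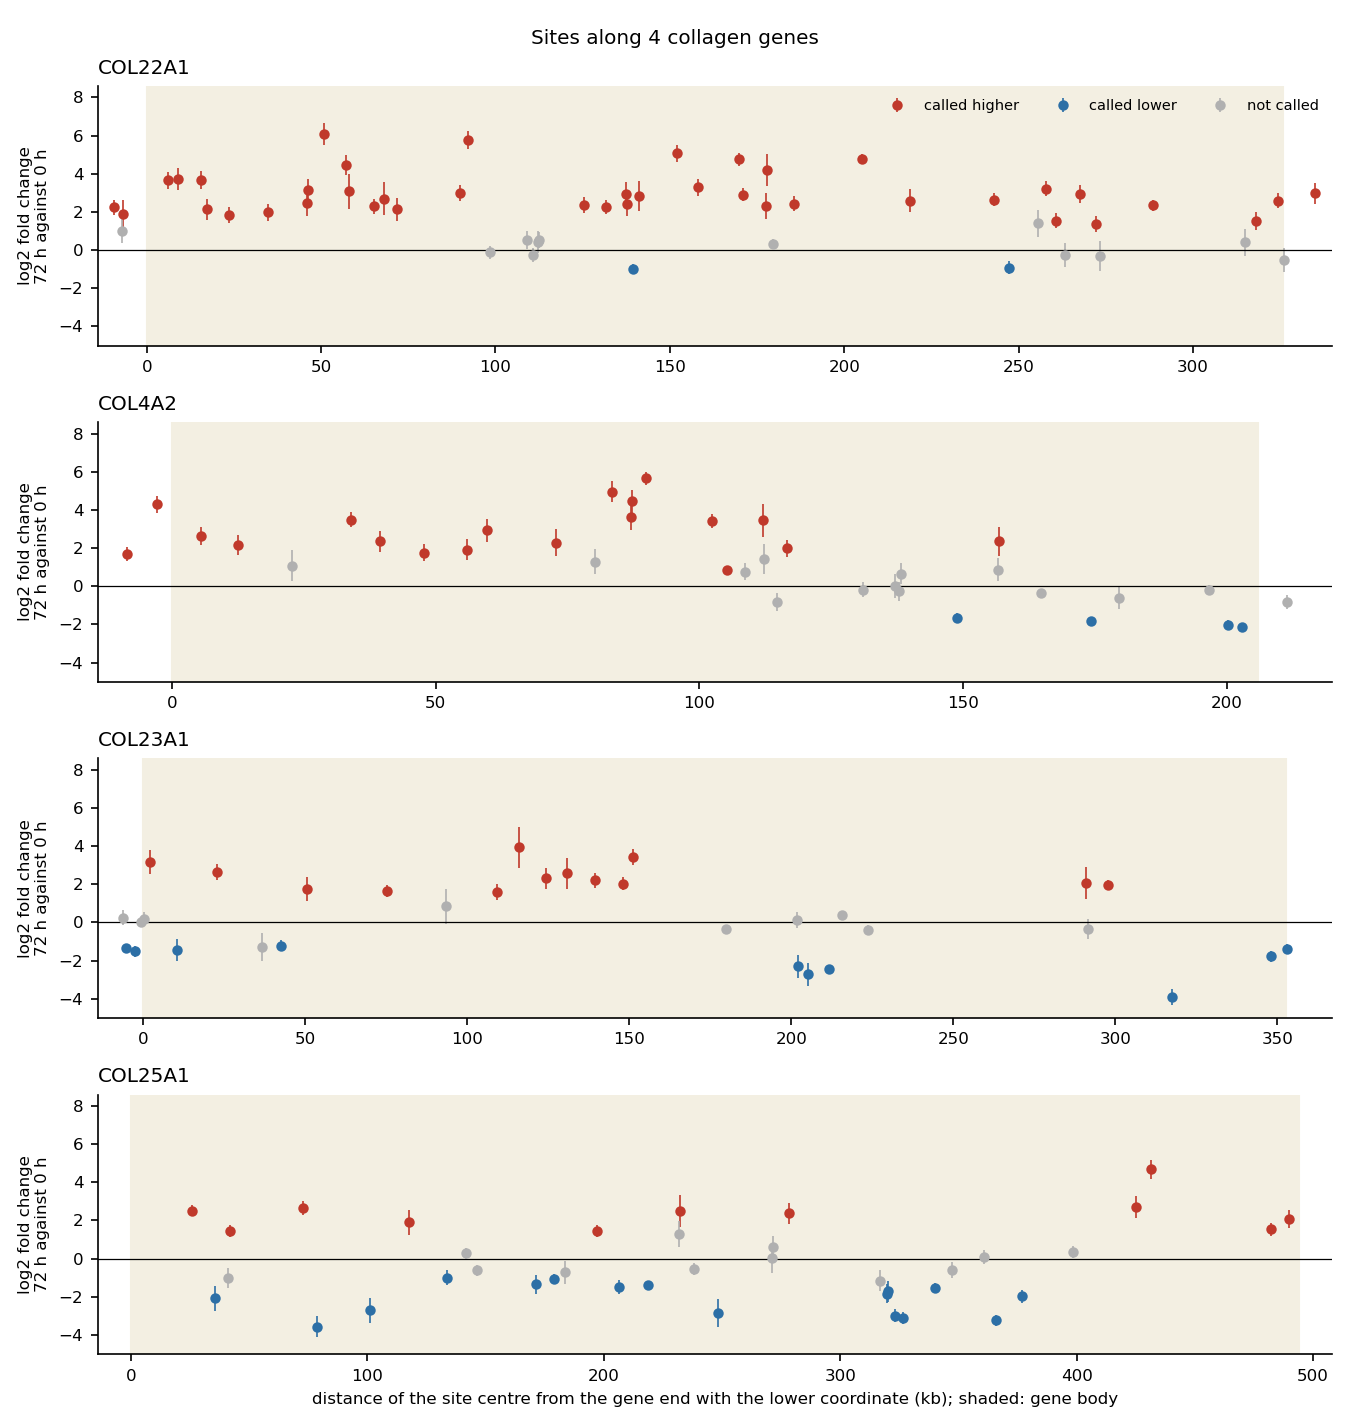
Log2 fold change at 72 h against 0 h (± standard error) of each tested site of COL22A1, COL4A2, COL23A1 and COL25A1, by distance from the gene end with the lower coordinate in kb, with the gene body shaded. Higher sites (red) run through COL22A1, lie up to 156.9 kb into COL4A2 with lower sites (blue) from 148.8 kb on, and alternate with lower sites in COL25A1.

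COL14A1, on the same chromosome as COL22A1 and also a fibril-associated collagen, had 9 of 11 sites higher at 72 h and none lower, and all 9 were called under all 5 scalings. Its sum went from 6.69 and 6.17 CPM at 0 h to 10.4 and 9.78 at 6 h, then 23.7 and 24.1 at 72 h. This was a rise of 0.65 ± 0.17 at 6 h and 1.9 ± 0.16 at 72 h (edgeR, adjusted p = 6.1e-09). Among named COL14A1 sites the largest rise was at peak166849 (chr8:120327060-120327682, in the gene body), with 2 and 2 counts at 0 h, 9 and 30 at 6 h, then 134 and 159 at 72 h, and its neighbour peak166850 (chr8:120329201-120329793) went from 0.26 and 0.574 CPM to 4.76 and 5.26. COL21A1 had 6 of 7 sites higher and 1 lower. Its sum rose by 0.57 ± 0.16 at 72 h, a call that was lost without the second 72 h library (0.45, edgeR adjusted p = 0.053). In COL9A1, a chain of cartilage collagen, all 3 sites fell at 6 h and the sum fell by 1.48 on the log2 scale (standard error 0.20), from 12.9 and 13.6 CPM to 4.78 and 4.75, then stood at 7.07 and 8.68 at 72 h. COL16A1 had 8 of 15 sites higher and 3 lower, COL19A1 had 7 of 17 higher and 5 lower, and COL9A3 had 3 of 11 higher and 6 lower. Under all 5 scalings these were 3 and 0, 5 and 1, and 3 and 1.

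Type IV collagen, the network former of basement membranes, gained at the COL4A1 and COL4A2 pair, which share a promoter region. The flanks of this pair reach into each other, so sites near the shared region count for both genes. Of all collagen sites, 5 were given to 2 collagens. COL4A1 had 9 of 10 sites higher at 72 h and none lower. Its sum was 9.55 and 5.83 CPM at 0 h, 14.5 and 15.8 at 6 h, then 30.4 and 27.8 at 72 h, and rose by 1.01 ± 0.19 and then by 1.94 ± 0.18 (edgeR, adjusted p = 2.9e-08 at 72 h). COL4A2 had 19 of 37 sites higher and 4 lower, and all 23 calls held under all 5 scalings. The gains and losses of COL4A2 offset each other in its sum, which was 117 and 123 CPM at 0 h, 100 and 103 at 6 h, then 115 and 116 at 72 h, with a log2 fold change of -0.06 ± 0.10 at 72 h that was not called. The higher sites lay between 8.5 kb before the start of COL4A2 and 156.9 kb into it, and the lower ones between 148.8 and 202.8 kb, toward its far end. The largest rise was at peak49762 (chr13:110396688-110397564, 89.84 kb into the gene), with 0.26 and 0.239 CPM at 0 h, 2.90 and 2.91 at 6 h, then 12.1 and 13.2 at 72 h. It rose by 3.53 ± 0.41 at 6 h and 5.65 ± 0.35 at 72 h. The most accessible COL4A2 site, peak49780 (chr13:110503362-110504582), was not called at either time against 0 h, and its 0 h libraries lay apart at 8.71 and 18.4 CPM.

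COL4A5, on the X chromosome, had 2 of 4 sites lower and a sum of 25.7 and 21.1 CPM at 0 h, 10.9 and 10.8 at 6 h, then 7.61 and 8.78 at 72 h. It fell by 1.11 on the log2 scale (standard error 0.16) at 6 h and by 1.51 (0.16) at 72 h. Its head-to-head partner COL4A6 had 5 of 12 sites higher and 2 lower, and its sum, 19.4 and 13.3 CPM at 0 h and 19.5 and 25.0 at 72 h, was called with TMM (0.46 ± 0.18) but not under all 5 scalings. Sites peak179262 and peak179263 lie within reach of both COL4A5 and COL4A6 and count for each. COL4A4 had 2 of 10 sites higher and 3 lower. The COL4A4 sum was lower at 6 h, with a log2 fold change of -0.88 ± 0.17, from 21.1 and 20.5 CPM to 13.6 and 9.56. Its peak99303 (chr2:226981670-226982106), which also lies in the body of RHBDD1, fell from 3.05 and 3.87 CPM to 1.45 and 0.443 at 6 h, then 0.466 and 0.354 at 72 h, by 3.08 (standard error 0.45) at 72 h. COL4A3 had 2 sites and at most 1.96 CPM in any library, and 1 of them was higher at 72 h.

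The beaded filament collagen VI, a thin network around cells, gained most at COL6A3. This gene had 11 of 12 sites higher at 72 h and none lower, 10 of them under all 5 scalings. Its sum was 7.28 and 5.98 CPM at 0 h, 14 and 14.4 at 6 h, then 38.2 and 44.9 at 72 h. The sum rose by 1.11 ± 0.16 at 6 h and by 2.66 ± 0.15 at 72 h (edgeR, adjusted p = 4.4e-10). Only COL4A3, with at most 1.96 CPM, had a larger change of its sum at 72 h (2.94 ± 0.72). The most accessible site, peak99979 (chr2:237383852-237384772, 29.85 kb from the start), went from 0.78 and 0.382 CPM to 4.86 and 3.92 and then to 15.0 and 17.5. At its start the gene opened from almost nothing. The site there, peak99985 (chr2:237414088-237414575), which overlaps the promoter printed above, had 3 and 0 counts at 0 h, 4 and 23 at 6 h, then 89 and 162 at 72 h. Against the 3 counts at 0 h this was a ratio of 37.5 at 72 h, with an exact 95% interval of 12.7 to 183, and a fitted log2 fold change of 5.12 ± 0.68. The call at 6 h, 2.77 ± 0.87 with an adjusted p of 0.015 in edgeR, was lost without the second 0 h library (1.60, adjusted p = 0.17) and without the second 6 h library (1.92, adjusted p = 0.28).

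COL6A1 and COL6A2, neighbours on chromosome 21 that encode the other main chains of type VI, stood highest at 6 h with TMM scaling. COL6A2 stood at 21.7 and 20.3 CPM at 0 h, 70.4 and 52.3 at 6 h, then 40.5 and 45.3 at 72 h, so the 6 h libraries were highest. Its sum rose by 1.54 ± 0.14 at 6 h and by 1.03 ± 0.14 at 72 h, while the step from 6 to 72 h was -0.50 ± 0.13 with TMM and positive with loess offsets (0.10) and with TMM from shared sites (0.17). That step was not called without the first 6 h library (-0.29) or the first 72 h library (-0.38). The COL6A2 site peak108032 (chr21:46123633-46124059, 25.73 kb into the gene), which had no deposited peak, rose by 3.62 ± 0.42 at 6 h, from 0.455 and 0.478 CPM to 7.50 and 4.43. It then fell by 2.36 (standard error 0.34) to 1.27 and 0.991 CPM. COL6A1 rose by 0.52 ± 0.11 at 6 h, from 33.7 and 35.4 CPM to 50 and 49.0. It stood at 31.2 and 34.4 CPM at 72 h, where it was not called against 0 h. COL6A6 rose by 0.82 ± 0.16 at 6 h, from 13.6 and 11.3 CPM to 23 and 20.9, and stood at 14 and 16.4 CPM at 72 h. From 6 to 72 h the TMM values were -0.59 ± 0.11 for COL6A1 and -0.52 ± 0.15 for COL6A6. Neither of these steps was called under all 5 scalings.

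Among fibrillar collagens COL27A1 had the most gains. COL27A1, a chain of cartilage, had 14 of 27 sites higher and none lower at 6 h, and 17 higher and 2 lower at 72 h. All 17 were called under all 5 scalings. Its sum was 48.0 and 44.9 CPM at 0 h, 92.7 and 114 at 6 h, then 110 and 112 at 72 h. This was a rise of 1.16 ± 0.11 at 6 h and 1.26 ± 0.11 at 72 h, and the step from 6 to 72 h depended on the scaling. It was not called with TMM (0.10 ± 0.11) or RLE (0.07), and was a rise with total counts (0.46), loess offsets (0.81) and TMM from shared sites (0.77). Its most accessible site, peak173248 (chr9:114277202-114277921, 122.02 kb into the gene), had the largest rise at 6 h of the collagen sites with a mean of at least 1 CPM, 5.33 ± 0.36 (edgeR, adjusted p = 3.6e-10), from 0.65 and 0.191 CPM to 13.5 and 18.0. It held 10.8 and 9.98 CPM at 72 h.

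COL5A3, a minor chain that joins type V fibrils, had 7 of 9 sites higher at 6 h and none lower. Its sum was 6.95 and 6.12 CPM at 0 h, 35.6 and 47.9 at 6 h, then 27.7 and 23.1 at 72 h. It rose by 2.69 ± 0.17 at 6 h (edgeR, adjusted p = 1.2e-08) and by 1.96 ± 0.17 at 72 h. The step from 6 to 72 h was -0.73 ± 0.15 with TMM and was not called with loess offsets or with TMM from shared sites. Most of the gain was at peak81288 (chr19:10018135-10019446), 7631 bases outside the gene and inside the neighbouring gene RDH8, which went from 1.1 and 0.813 CPM to 18.8 and 29.3 at 6 h and then to 14.1 and 11.2 at 72 h. At the COL5A3 start, peak81287 (chr19:10010343-10010795) rose by 1.56 ± 0.42 at 6 h, from 0.715 and 1.15 CPM to 3.50 and 2.31, and fell by 2.13 (standard error 0.40) to 0.647 and 0.637 CPM at 72 h.

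Type I collagen, the main protein of bone and tendon, has the chains COL1A1 and COL1A2. COL1A1 had 3 of 6 sites higher and 1 lower at 72 h, and its sum lay between 62.6 and 69.8 CPM in all 6 libraries, with a log2 fold change of 0.10 ± 0.10 at 72 h that was not called. COL1A2 had no called site among 4, and its sum lay between 5.85 and 9.04 CPM. COL2A1 had 1 of 4 sites higher and 1 lower, COL5A1 had 3 of 13 higher and 1 lower, and COL5A2 had 3 of 11 higher and 4 lower. Under all 5 scalings these were 1 and 0, 2 and 0, and 3 and 1. COL24A1 had 2 sites, 1 of them lower with TMM but not under all 5 scalings. COL11A2 had 4 of 7 sites lower and none higher, and 1 of the falls was called under all 5 scalings. Its sum fell by 1.31 (standard error 0.10) from 118 and 108 CPM to 44.8 and 45.8 at 72 h, but 67.5% of its counts lay at the ends of other genes. COL3A1 had no site in the table, and the only deposited peak within its reach was 1 in the first 6 h library.

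Among the transmembrane collagens, COL13A1 had 16 of 31 sites higher and 2 lower at 72 h, 9 and 0 of them under all 5 scalings, and its sum went from 45.8 and 41.1 CPM to 66.1 and 60.9 and then to 97.0 and 92.6, a rise of 1.13 ± 0.10 at 72 h. Its most accessible site, peak24687 (chr10:69874327-69875075, 72.8 kb into the gene), rose from 0.715 and 0.622 CPM to 6.05 and 5.54 at 6 h, then 14.2 and 17.7 at 72 h. COL17A1, a hemidesmosome collagen of skin, had 7 of 9 sites higher and 1 lower, and its sum rose by 1.25 ± 0.17 at 6 h and 1.88 ± 0.16 at 72 h, from 7.60 and 5.88 CPM to 25.4 and 23.9. In COL23A1, 13 of 33 sites were higher and 10 lower at 72 h, 12 and 4 of them under all 5 scalings. The COL23A1 sum was lower at 6 h, with a log2 fold change of -0.63 ± 0.10. It went from 127 and 131 CPM at 0 h to 83.1 and 84.5 at 6 h, then 95.4 and 99.2 at 72 h. The 72 h value, -0.41 ± 0.10 with TMM, was not called under all 5 scalings. Its peak139140 (chr5:178554914-178555573, 35.15 kb from the start) had the largest fall at 72 h of the collagen sites with a mean of at least 1 CPM. It held 7.73 and 5.31 CPM at 0 h, 0.938 and 0.158 at 6 h, then 0.492 and 0.378 at 72 h, and had a deposited peak in the 0 h libraries alone. The fall was 3.99 on the log2 scale (standard error 0.50) at 6 h and 3.89 (0.43) at 72 h. A second site, peak139134 (chr5:178448909-178449696), was open in all libraries and fell by 2.29 (standard error 0.20) at 6 h and 2.43 (0.19) at 72 h, from 30.6 and 27.0 CPM to 5.71 and 6.01 and then 5.70 and 5.00.

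COL25A1, whose product was first found in amyloid plaques of the brain, had the most lower sites of any collagen at 72 h. At 6 h 14 of its 39 tested sites were lower and 6 higher, and at 72 h 16 were lower and 11 higher, of which 8 and 11 were called under all 5 scalings. At peak127479 (chr4:109174102-109174823, 128.2 kb from the start) accessibility was 15.2 and 11.8 CPM at 0 h, 3.07 and 1.33 at 6 h, then 1.40 and 1.44 at 72 h. This fall was 2.76 (standard error 0.32) at 6 h and 3.24 (0.30) at 72 h. At peak127475 (chr4:109134817-109135515) and peak127474 (chr4:109131565-109132037), which neighbour each other, accessibility was lower at 6 h and lower again at 72 h. The first went from 5.33 and 6.02 CPM to 2.81 and 2.09 and then to 0.673 and 0.637, and the second from 4.81 and 3.92 to 2.22 and 2.18 and then to 0.699 and 0.401. The 6 h value of peak127474, -0.98 with TMM, was not called with total counts (-0.85) or with TMM from shared sites (-0.69). At the other end of the same gene, peak127447 (chr4:108834007-108834932, 468.19 kb from the start) rose by 2.36 ± 0.30 at 6 h and 2.51 ± 0.30 at 72 h, from 3.57 and 1.43 CPM to 12.2 and 15.3.

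**Figure D4:**
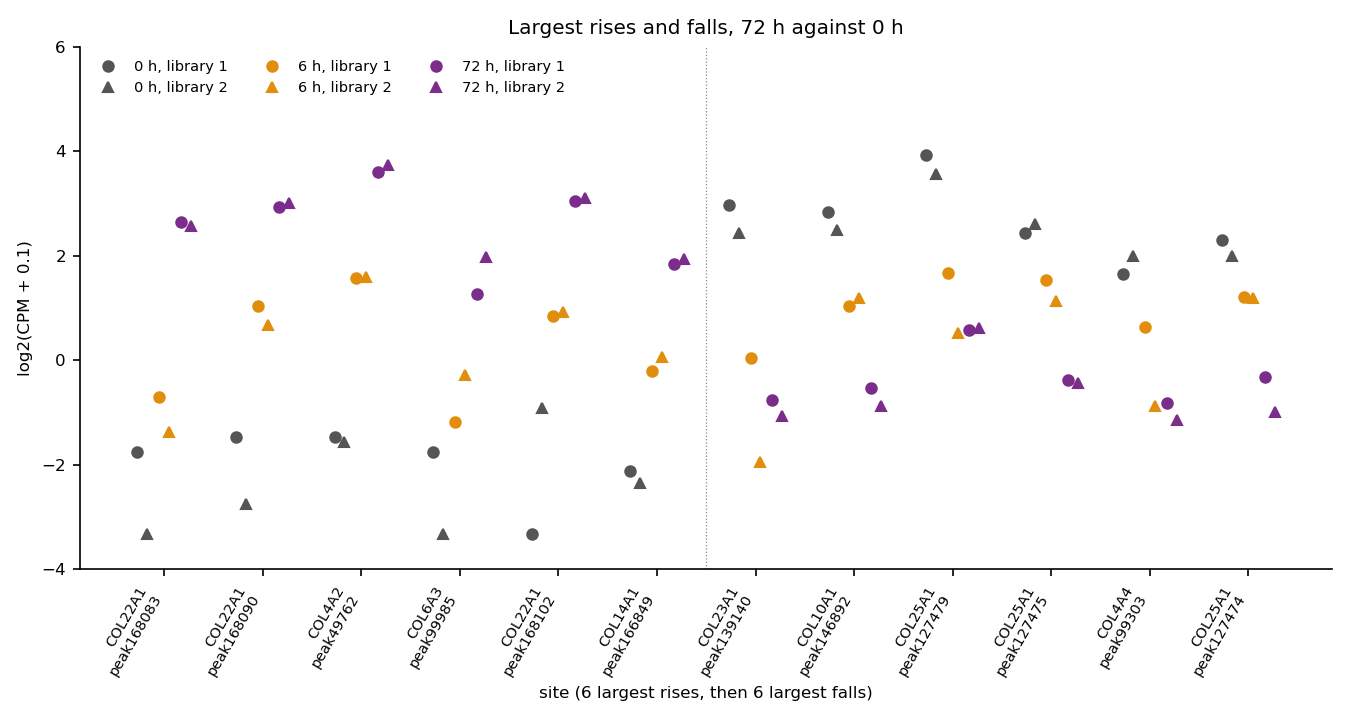
Accessibility in each of the 6 libraries, as log2(CPM + 0.1), at the 6 collagen sites with the largest rise and the 6 with the largest fall at 72 h against 0 h among those with a mean of at least 1 CPM; circles are first and triangles second libraries. Rises are on the left and falls on the right. Only called sites whose 72 h and 0 h libraries did not overlap were taken, so that separation is set by the choice. The 6 h libraries, which had no part in the choice beyond the mean, lie between the other groups at most sites.

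COL15A1, a multiplexin whose end fragment resembles endostatin, had 9 of 35 sites higher and 11 lower at 72 h, 7 and 6 of them under all 5 scalings. A pair of sites in the flank of the gene fell together. The site peak172338 (chr9:99076639-99077051, 5852 bases outside the body) went from 14.9 and 12.2 CPM to 2.73 and 3.04 at 6 h, then 2.54 and 2.15 at 72 h, and peak172337 (chr9:99075095-99075923) from 27.5 and 32.5 to 12.8 and 14.1 and then 11.5 and 10.5. COL18A1, the source of endostatin, had 3 of 12 sites higher and 6 lower, 3 and 2 of them under all 5 scalings. COL26A1 had 2 of 26 higher and 11 lower, but only 3 of the falls were called under all 5 scalings. Its peak156447 (chr7:101399663-101400309, 37.11 kb into the gene) rose by 4.18 ± 0.43 at 6 h and 3.71 ± 0.43 at 72 h, from 0.325 and 0.239 CPM to 4.26 and 5.73 and then 3.16 and 4.18. In the same gene, peak156452 (chr7:101450179-101450587) held 1.36 and 1.53 CPM at 0 h and 1.28 and 1.52 at 6 h, and fell by 2.57 (standard error 0.49) after 6 h, to 0.311 and 0.165.

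The short chain collagens, network formers of cornea, vessels and growth cartilage, went both ways. COL8A1 had 8 of 15 sites higher and 2 lower at 72 h, and its peak117412 (chr3:99658780-99659579) rose by 4.19 ± 0.28 at 6 h and 3.89 ± 0.28 at 72 h, from 0.845 and 0.765 CPM to 15.9 and 13.7 and then 11.3 and 12.5. COL8A2, its partner chain, had 9 of 12 sites lower and none higher, of which 2 were called under all 5 scalings, and its most accessible site lay at the ends of TEKT2 and ADPRS. In COL10A1, all of whose 12 sites overlap another gene, 6 of 11 sites were higher and 3 lower. Its peak146892 (chr6:116170044-116170975, inside NT5DC1) fell from 7.02 and 5.55 CPM to 1.96 and 2.18 at 6 h, then 0.595 and 0.448 at 72 h, by 3.58 (standard error 0.33) at 72 h. COL28A1 had 4 of 8 sites higher and 1 lower and a sum that rose by 1.27 ± 0.18 at 72 h, from 8.12 and 6.74 CPM to 16.0 and 19.6.

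Sites at transcription starts were described apart from those in gene bodies, without a test of the difference. A site counted as at a start when it overlapped the region from 250 bases before to 50 after it. That was so in 14 of the 32 collagens with a RefSeq promoter. Over the 14 sites, 3 were higher and 7 lower at 72 h, with a median log2 fold change of -0.76, whereas 220 of 495 gene body sites were higher and 109 lower, with a median of 0.76. At 0 h the start sites were the more accessible, with a median of 5.25 CPM against 0.89 in gene bodies. Under all 5 scalings 2 of the 10 calls held, the rise at COL6A3 and the fall at COL15A1. Losses with TMM also prevailed at other groups of collagen sites. Of the 73 with a peak in all 6 libraries, 6 were higher and 48 lower at 72 h (median -0.96). Of the 11 at the end of another gene, 2 were higher and 9 lower (median -1.3). Starts of all genes were not counted, so the falls are not read as particular to collagen starts. At COL15A1, peak172306 (chr9:98943488-98944276) stood at 7.15 and 7.31 CPM at 0 h, 6.57 and 5.32 at 6 h, then 2.25 and 1.82 at 72 h, a fall of 1.83 (standard error 0.26) at 72 h (edgeR, adjusted p = 2.3e-06). The starts of COL18A1, COL23A1, COL27A1 and COL6A2 had values of -1.21, -1.38, -1.44 and -1.17 at 72 h with TMM, and of -0.24, -0.41, -0.47 and -0.21 with TMM from shared sites, where none was called. At the COL27A1 start, levels went from 6.63 and 6.79 CPM to 2.20 and 2.74, while 17 sites of the gene were higher.

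COL7A1, the anchoring fibril collagen of skin, had the most accessible start among those that rose. Its peak115765 (chr3:48595338-48596627) stood at 14.7 and 20.1 CPM at 0 h, 35.0 and 47.9 at 6 h, then 21.6 and 30.5 at 72 h. The rise of 1.26 ± 0.20 at 6 h was called under all 5 scalings (edgeR, adjusted p = 2.8e-05). The value at 72 h, 0.58 ± 0.20, was not called with RLE size factors, nor, in edgeR, without the first 0 h library (0.36, adjusted p = 0.14) or the second 72 h library (0.31, adjusted p = 0.27). At COL13A1 the start site had a log2 fold change of 0.68 ± 0.26 at 72 h, which was not called with RLE or loess scaling or without any 1 of its 4 libraries. At the shared start of COL4A5 and COL4A6, peak179263 (chrX:108439629-108440465) had a value of -0.90 ± 0.33 at 72 h with TMM and 0.06 with TMM from shared sites. No site of the table overlapped the start of COL4A1, COL4A2, COL4A3 or COL4A4. For the 12 collagens without a promoter entry, sites within 1000 bases of either end of the gene were taken, since the gene table gives no strand. Of these 13 sites 1 was higher at 72 h, peak117408 near COL8A1 (2.85 ± 0.51, from 0.26 and 0.287 CPM to 1.76 and 2.27), and 5 were lower. Under all 5 scalings the site near COL6A5, peak119015 (-2.53 ± 0.29), and that near COL5A2, peak97404 (-1.79 ± 0.17), which also lies at an end of WDR75, fell. COL1A1's peak73400 was open in all libraries, at 20.5 and 22.3 CPM at 0 h and 13.8 and 13.3 at 72 h, and its value of -0.66 ± 0.17 became 0.31 with TMM from shared sites.

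**Figure D5:**
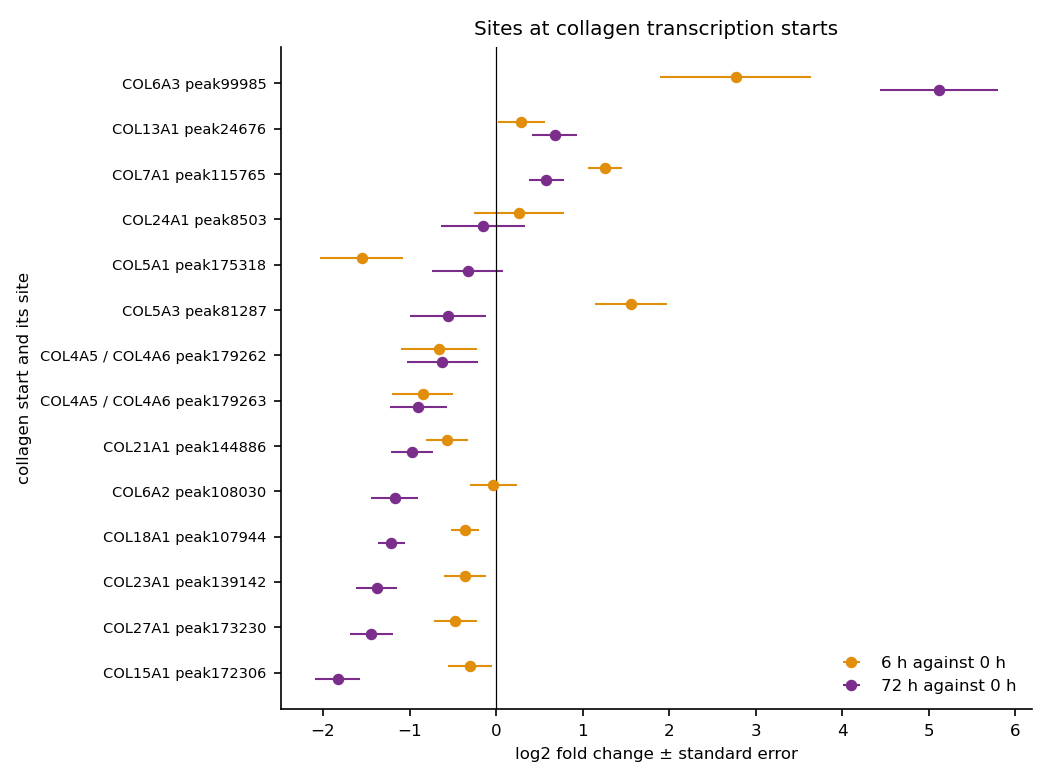
Log2 fold change (± standard error) at 6 h (orange) and 72 h (purple) against 0 h of 14 sites, ordered by the 72 h value with TMM scaling. Each overlaps the region from 250 bases before to 50 after a collagen start in RefSeq. COL6A3 stands apart at 5.12, and COL15A1 is lowest at -1.83.

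The deposited peak lists, called by the authors in each library separately, gave numbers of peaks. Collagen windows held 149 and 173 peaks at 0 h, 176 and 259 at 6 h, then 426 and 461 at 72 h. These were 0.241% and 0.250%, 0.269% and 0.278%, and 0.307% and 0.324% of all peaks of each library, and no group overlapped another in either measure. Peak numbers move with depth, and 2 libraries against 2 cannot reach an exact permutation p below 0.05, so no test was made. Of the 589 sites, 126 carried a peak in the 72 h libraries alone, in both of them. Peaks in both libraries of 0 h alone were found at 5 sites, 73 sites had a peak in all 6 libraries, and 70 overlapped no deposited peak. These patterns were not counted over all sites of the table. Over the whole genome the 0 h libraries held 61873 and 69152 peaks, and the 72 h libraries 138914 and 142305. The numbers of sites with peaks at 1 time alone are therefore not read as a trait of collagens.

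Genes that make, cut and bind collagen were counted from lists of their own, none of which holds a collagen. Of 115 sites at 15 genes of collagen making, the hydroxylases, chaperones and transferases of the endoplasmic reticulum, 28 were higher and 56 lower at 72 h (24.3% and 48.7%, with a median of -0.67), beside 38.2% and 29.2% of all sites. Under all 5 scalings 25 were higher and 19 lower (21.7% and 16.5%, beside 29.2% and 9.39% of all sites). P4HB, the disulfide isomerase subunit of prolyl hydroxylase, had 8 of 8 sites lower. Its sum went from 277 and 324 CPM at 0 h to 219 and 233 at 6 h, then 97.6 and 110 at 72 h, a fall of 1.53 (standard error 0.11). The sum of COLGALT1, which adds galactose to collagen, fell by 0.60 (0.10) at 6 h and by 1.53 (0.10) at 72 h, and that of PPIB, a prolyl isomerase, by 1.59 (0.11) at 72 h. P4HA2 had 6 of 11 sites higher and 4 lower, and COLGALT2 had 6 of 23 higher and 8 lower. The lists are described, not tested.

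Of 166 sites at 13 genes that trim procollagen or crosslink fibrils, 74 were higher and 38 lower at 72 h (44.6% and 22.9%, with a median of 0.56), beside 38.2% and 29.2% of all sites. Under all 5 scalings 56 were higher and 11 lower (33.7% and 6.63%), near the 29.2% and 9.39% of all sites. LOXL2, a lysyl oxidase that crosslinks collagen, had 20 of 29 sites higher and 1 lower. Its sum rose by 0.73 ± 0.10 at 6 h and 1.22 ± 0.10 at 72 h, from 68.4 and 65.8 CPM to 104 and 118 and then 152 and 161. BMP1, which cuts the carboxyl end of procollagen, was higher at 6 h alone under all 5 scalings (0.71 ± 0.12), from 95.0 and 111 CPM to 156 and 179, with 113 and 132 at 72 h. LOXL3 had 5 of 9 sites lower and a sum that fell by 1.34 (0.12) at 72 h.

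Of 133 sites at 9 genes of collagen receptors, 62 were higher and 26 lower at 72 h (46.6% and 19.5%, with a median of 0.80), beside 38.2% and 29.2% of all sites. Under all 5 scalings 52 were higher and 8 lower (39.1% and 6.02%, beside 29.2% and 9.39%). ITGA2, the alpha2 chain of the platelet collagen integrin, had all 16 sites higher at 72 h. Its sum was 14.7 and 14.3 CPM at 0 h, 42.5 and 37.1 at 6 h, then 84.4 and 74.5 at 72 h, a rise of 1.45 ± 0.13 and then 2.45 ± 0.12 against 0 h (edgeR, adjusted p = 1.5e-10 at 72 h). ITGA11, a receptor of fibrillar collagen, had 18 of 32 sites higher and 2 lower, and its sum rose by 1.68 ± 0.11 at both 6 and 72 h with TMM, to 110 and 125 CPM and to 118 in both 72 h libraries. With TMM from shared sites the values were 1.98 at 6 h and 2.65 at 72 h. The sum of GP6, the platelet signalling receptor for collagen, fell by 0.81 (standard error 0.11) at 6 h, a call under all 5 scalings, from 181 and 187 CPM to 96.4 and 112. It had 5 of 10 sites lower and 1 higher at 72 h.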

How the data were processed

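ATAC-seq counts of 6 K562 libraries over 181135 sites, as deposited by the authors, were the main data. The submitters' processing notes name build hg38, Trim Galore 0.4.3, BWA 0.7.17, SAMtools 1.9, deepTools 3.0.1, MACS2, bedtools 2.26 and DESeq. How reads were counted per site is not given in the sources used here. The authors' deposited log2 fold changes and adjusted p-values, per the file headers, were not used for calls, and the p-values of both times were the same. The deposited peak lists, 1 per library, hold a score, a fold enrichment ratio and −log10 p and q, which served only as a threshold.

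Counts were tested with edgeR 4.0.16 (R 4.3.3, quasi-likelihood, TMM factors, Benjamini-Hochberg adjustment over 177759 sites left by its count filter, which removed 3376). The time groups were fitted together without a replicate term, because same-numbered libraries deviated together with correlations of 0.131, 0.076 and 0.118, not all over 0.1. Calls needed an adjusted p under 0.05. Standard errors were worked back from the test, as the absolute log2 fold change over the square root of its quasi-likelihood F. Library totals ran from 12258890 to 35548737, which sets the counting error. DESeq2 1.42.0, other scalings, filters and reaches, and leaving out each library were alternatives. The code was tested on simulated data.

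Named sites were the largest called rises and falls (6 each way against 0 h, 3 against 6 h) with a mean of at least 1 CPM and no overlap between groups, with start sites and the most accessible site of genes described in detail, the last added after seeing the data. Sites or genes outside that rule were chosen after their values were seen. Members and lists were chosen with earlier results of these data known. Coordinates are 1-based, and the gene table carries no strand.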

Additional observations from a re-analysis of the deposited data

How the results depend on the processing

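Counts of called collagen sites and sums moved by over 1.5 times under some settings. With a reach of 50 kb, which takes in more sites, sites higher at 6 h numbered 223 and lower 119, with 384 and 230 at 72 h and 163 lower at 72 h against 6 h, and 14 sums were lower at 6 h. With loess offsets, 106 sites and 4 sums were lower at 6 h, 29 sums higher and 6 lower at 72 h, and 21 higher and 1 lower at 72 h against 6 h. With total counts, 88 sites and 6 sums were lower at 72 h, and 50 sites lower, 19 sums higher and 6 sums lower at 72 h against 6 h. With TMM from shared sites, 38 sites and 4 sums were lower at 6 h, 51 sites and 2 sums lower and 34 sums higher at 72 h, and 257 sites higher, 23 lower, 23 sums higher and 1 lower at 72 h against 6 h. A stricter rule (p adjusted to under 0.01, log2 change of more than 1 either way) allows fewer calls: 36 sites lower, 6 sums higher and 2 lower at 6 h, 4 sums lower at 72 h, and 107 sites higher, 42 lower, 4 sums higher and 0 lower at 72 h against 6 h. DESeq2 called 101 sites higher at 72 h against 6 h. Other causes were not tested.

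Leaving out 1 library gave 91 to 134 sites higher at 6 h, 90 to 174 higher and 47 to 104 lower at 72 h against 6 h. A replicate block, which treats libraries of the same number as a pair, gave 143 sites higher and 78 lower at 6 h. It gave 249 higher and 142 lower at 72 h, and 162 higher and 96 lower at 72 h against 6 h. With the block 14 sums were higher at 72 h against 6 h, beside 10 without it.

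Of 1820 values of single sites and sums under 7 alternatives, 1625 kept direction and call, 65 lost the call and 55 gained one. The sign changed in 58 values that were not called under either setting, 24 of them with TMM from shared sites, and in 17 that were called under at least 1. Of the 17, with TMM from shared sites the 72 h value became positive at peak49780 (0.81), peak73400 (0.31), peak105244 (0.73), peak108009 (0.35), peak145114 (0.25), peak155875 (0.61) and peak179263 (0.06). The value at 72 h against 6 h became positive at peak49780 (0.07), peak73400 (0.11), peak139111 (0.03), peak139134 (0.53), peak173248 (0.06), and in the sums of COL4A5 (0.27) and COL6A2 (0.17). With loess offsets it did so at peak73400 (0.04), peak115765 (0.13) and the COL6A2 sum (0.10). Depth limits sites near empty at 0 h, where 3 counts or fewer lie behind a value.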

Other observations

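In the authors' deposited table each site has a class name, and the names did not follow the sign of the fold changes beside them. Of 35 collagen sites in the class named downEarly, 27 (77.1%) had a positive 72 h fold change in the authors' deposited table, as did 74 of 97 (76.3%) in upLate. Over all sites of the authors' deposited table the shares were 69.5% and 71.1%. The class names were therefore not used.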
